A study of Mus musculus with 6 samples.

Results

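The granins and dense-core granule proteins described here are 7 genes, Chga, Chgb, Scg2, Scg3, Vgf, Ptprn and Ptprn2, chosen by gene name out of 47643 genes in the count tables. All 7 passed the filter on low counts, as did 16072 genes in all. They were measured by RNA sequencing of pancreatic islets from TG mice, whose transgene for the microRNA miR-203 the labels describe as beta-cell specific, and from wild-type (WT) mice. The labels give all mice as male, 10 weeks old and fasted for 12 h, and do not name the promoter of the transgene. Each genotype had 3 libraries. TG 1, TG 2, WT 1 and WT 2 were deposited in a first table and TG 3 and WT 3 in a second, so the table was a term of the comparison. Since the labels do not say whether each library is a separate animal, the p-values speak only of the spread among these samples, part of which may be technical.

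Dense-core granules are the vesicles in which endocrine cells concentrate and store peptide hormones. Granins are acidic, calcium-binding proteins that aggregate with the hormone in the late Golgi, help the granule to form, and are themselves cut into peptides. Ptprn and Ptprn2 encode granule membrane proteins with a phosphatase-like domain, known as autoantigens of type 1 diabetes. Granins occur in every endocrine cell type of the islet, not in beta cells alone.

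Totals ran from 21615905 to 27482339 counts in TG and from 20176456 to 24631199 in WT. Islet hormone genes took 12.2% to 24.0% of counts in TG and 15.8% to 24.2% in WT, so the tissue carried its defining transcripts. TG 2 stood apart from the other TG libraries: the summed beta-cell markers were at 223759 CPM (counts per 1000000, scaled between libraries) in TG 2, against 56269 in TG 1 and 54506 in TG 3. The Mir203 gene had 170, 164 and 150 counts in TG 1, TG 2 and TG 3, against 39, 0 and 0 in WT 1, WT 2 and WT 3, so the library labelled WT 1 also held reads there. The female-specific RNA Xist had 27240 counts in TG 3 and 25145 in WT 3 but at most 13 in the other libraries, against the male label. The Y-linked gene Ddx3y had 1 and 10 counts in TG 3 and WT 3, against 1805 to 2575 in the other libraries. Apparent sex thus follows the table, and the effects of the 2 cannot be told apart. For the members, fold changes are given with and without the libraries named above, as single values or as ranges. For the lists, only some results without TG 2 are given.

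The mature microRNA is printed because it is the transgene's product, to show which letters were searched in the members. The 3p arm of miR-203 (chr12:112130927-112130948 of GRCm38.p6, plus strand, from RefSeq) is printed 5′ to 3′ with its seed, bases 2 to 8, in capitals.
miR-203-3p: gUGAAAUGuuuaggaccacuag
The seed pairs with CATTTCA in a message, and bases 2 to 7 followed by an A give the second site form, ATTTCAA. Neither was found, on the message strand, in the annotated 3′ UTR of the longest coding transcript of any of the 7 genes. Among 20939 genes with a 3′ UTR, 23.5% held at least 1 of these sites. In these transcripts the members' 3′ UTRs were short, from 163 bases in Ptprn2 to 637 bases in Scg3, against a median of 938 bases. Other transcripts were not searched, and the Ptprn2 transcript had 3201 bases, against a deposited gene length of 8602. The absence says only that these letters are not in these stretches.

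Promoters of Chga, Chgb and Scg2 are printed because Chga and Chgb were both higher in TG, described next, while Scg2 was not. RefSeq (GRCm38.p6) promoters run from 250 bases before to 50 bases after the annotated start, and 6 of the 7 genes matched an entry, Vgf being the exception. Capitals mark a cyclic AMP response element, the DNA motif bound by factors of the CREB family. The Chga promoter is chr12:102554691-102554990 on the plus strand, that of Chgb chr2:132781392-132781691 on the plus strand, and that of Scg2 chr1:79439977-79440276 on the minus strand.
Chga: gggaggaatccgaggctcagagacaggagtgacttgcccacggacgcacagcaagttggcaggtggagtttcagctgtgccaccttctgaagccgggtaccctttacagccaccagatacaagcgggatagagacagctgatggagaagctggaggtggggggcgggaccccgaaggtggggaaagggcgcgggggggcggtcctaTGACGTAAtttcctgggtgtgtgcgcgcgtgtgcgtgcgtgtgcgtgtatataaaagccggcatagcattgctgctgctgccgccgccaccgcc
Chgb: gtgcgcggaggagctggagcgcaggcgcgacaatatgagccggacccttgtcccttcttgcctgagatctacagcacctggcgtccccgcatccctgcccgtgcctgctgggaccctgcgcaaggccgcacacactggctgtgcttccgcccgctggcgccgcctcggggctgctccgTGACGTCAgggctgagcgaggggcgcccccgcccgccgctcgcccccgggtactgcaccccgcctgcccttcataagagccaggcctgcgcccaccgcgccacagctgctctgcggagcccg
Scg2: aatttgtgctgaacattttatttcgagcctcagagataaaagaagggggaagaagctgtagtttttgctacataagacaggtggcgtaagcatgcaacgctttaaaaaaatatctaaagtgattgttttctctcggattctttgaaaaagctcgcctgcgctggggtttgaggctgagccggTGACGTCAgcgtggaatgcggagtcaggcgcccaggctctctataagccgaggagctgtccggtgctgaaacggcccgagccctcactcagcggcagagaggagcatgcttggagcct
Both Chgb and Scg2 held the palindrome TGACGTCA, at positions -72 to -65 and -68 to -61 from the start. Among 32851 promoters, 1.79% held it. Chga held the variant TGACGTAA at -44 to -37, which 0.499% of promoters held on either strand. The shared core TGACG, which lies inside both longer motifs, was on either strand in 20.8% of all promoters. It occurred also in the Scg3 promoter and in the first of the 2 Ptprn promoters, but not in the second or in that of Ptprn2. A match is a description of letters, not a binding site, and Scg2 shares the palindrome with Chgb.

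Chga and Chgb, which encode chromogranin A and B, were higher in every TG library than in every WT library, and the other members showed no such separation. Chga was on average 1.996 times and Chgb 2.88 times its WT level in CPM. The ratios of the means were 1.08 for Scg2, 1.11 for Scg3, 0.987 for Ptprn and 0.947 for Ptprn2. Vgf had a ratio of 1.39, which rested on TG 1. In bulk islets, a change in the number of cells of a type and a change in RNA per cell cannot be told apart. Of the 7 genes, 0 passed in edgeR (Benjamini-Hochberg adjusted p under 0.05 over all 16072 genes), where 0.0% of all genes passed. At an unadjusted p under 0.05 there were 2 members, Chga and Chgb, against 14.1% of all genes in either direction, 9.32% higher and 4.81% lower in TG. DESeq2 called the same 2 members higher, with 3.83% of all genes higher, 0.846% lower and 4.68% in either direction. Without TG 2, edgeR called them higher too, with 8.82% of genes higher, 4.4% lower and 13.2% in either direction. Without the filter on low counts it also called both, with 4.37% higher, 1.25% lower and 5.62% in either direction, while limma-voom called 0 genes.

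**Figure D1:**
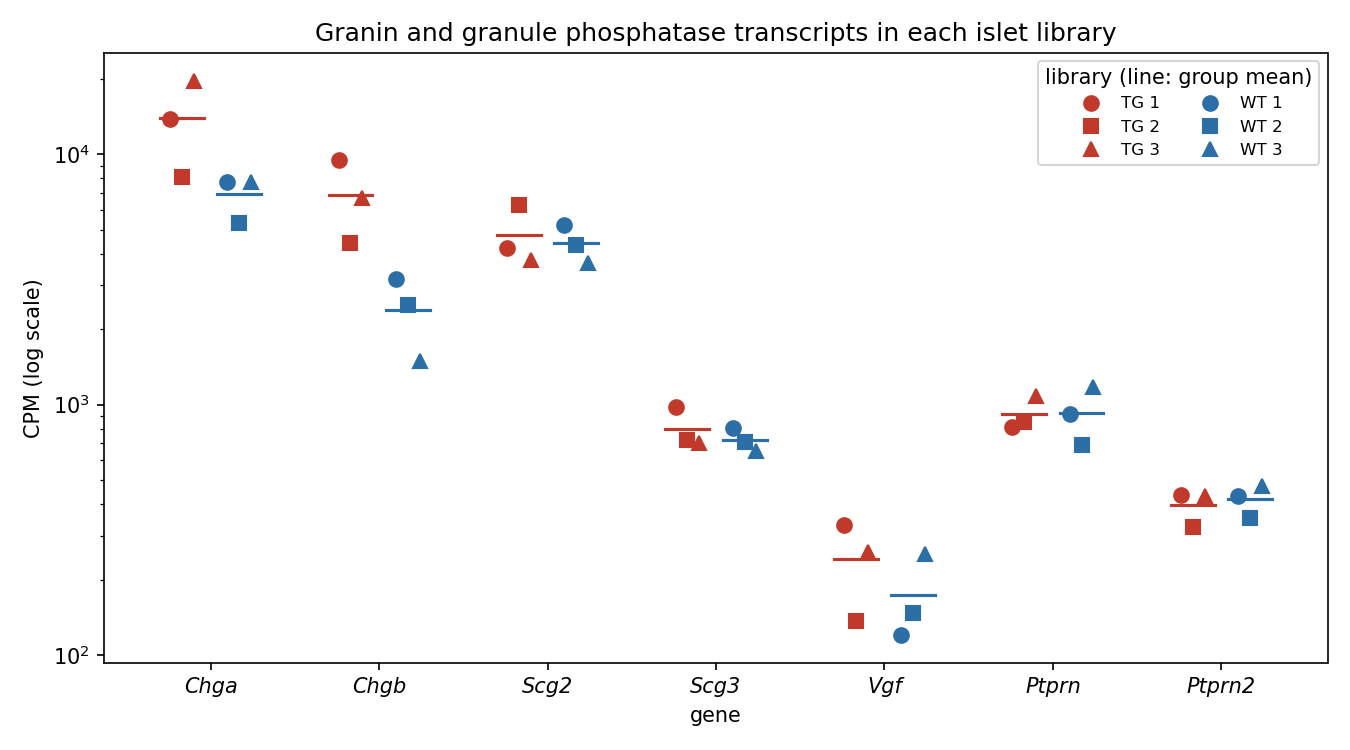
CPM (log scale) of the 7 genes in each TG library (red, left) and WT library (blue, right), with the group mean as a line. Chga and Chgb are the genes whose lowest TG library (8125 and 4434 CPM) lies above the highest WT library (7773 and 3166 CPM).

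Chromogranin A is a granin and the precursor of pancreastatin and vasostatin. Chga (ENSMUSG00000021194, chromosome 12, 102554969 to 102565027 of GRCm38, plus strand, 8 exons) had 13862, 8125 and 19635 CPM in TG 1, TG 2 and TG 3, against 7773, 5319 and 7763 CPM in WT 1, WT 2 and WT 3. TG 1 and TG 3 were far above all WT libraries, while TG 2 was only just above WT 1 and WT 3. Means were at 13874 ± 5755 CPM (SD) over the 3 TG libraries, against 6952 ± 1414 CPM over the 3 WT libraries. The log2 fold change (TG over WT) was 0.94 (SE 0.32), with a 95% interval of 0.18 to 1.71 that is not adjusted for the number of genes. It did not pass in edgeR (Benjamini-Hochberg adjusted p = 0.277). DESeq2 gave an adjusted p of 0.0218. Without TG 2, edgeR gave 1.19 and an adjusted p of 0.0327.

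Chromogranin B is a related granin that is sorted into the same granules. Chgb (ENSMUSG00000027350, chromosome 2, 132781278 to 132795079, plus strand, 5 exons) had 9474, 4434 and 6688 CPM in TG 1, TG 2 and TG 3, against 3166, 2509 and 1489 CPM in WT 1, WT 2 and WT 3. The groups did not overlap, TG 2 was the lowest of TG, and WT 3 was the lowest of all. Chgb thus averaged 6865 ± 2525 CPM (SD) over the 3 TG libraries, against 2388 ± 845 CPM over the 3 WT libraries. The log2 fold change was 1.58 (SE 0.37, 95% interval 0.71 to 2.45) and ranked 286th by p among 16072 genes. It too did not pass in edgeR (adjusted p = 0.199), and it passed in DESeq2 (0.00021) and in edgeR without TG 2 (log2 fold change 1.92, adjusted p = 0.00404). Every TG library lay above every WT library in 6.96% of all genes tested, which is the background for these 2 of 7 members.

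Relative to the WT libraries of its own table, Chga was 2.12-fold in TG 1, 1.24-fold in TG 2 and 2.53-fold in TG 3. The same ratios for Chgb were 3.34 in TG 1, 1.56 in TG 2 and 4.49 in TG 3. Chgb was therefore the more displaced of the pair in every TG library. In both tables TG was above WT, which was also so in 13.0% of all genes. The first table alone gave log2 fold changes of 0.75 for Chga and 1.29 for Chgb, with edgeR adjusted p of 0.9997 and 0.914. Without WT 1, the WT library with Mir203 reads, they were 1.18 and 1.77, with edgeR adjusted p of 0.417 and 0.376. In the same libraries, summed markers of PP cells had 21334, 10744 and 31497 CPM in TG 1, TG 2 and TG 3, against 6437, 7023 and 4403 CPM in WT 1, WT 2 and WT 3. What these cells add to the result was not tested.

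**Figure D2:**
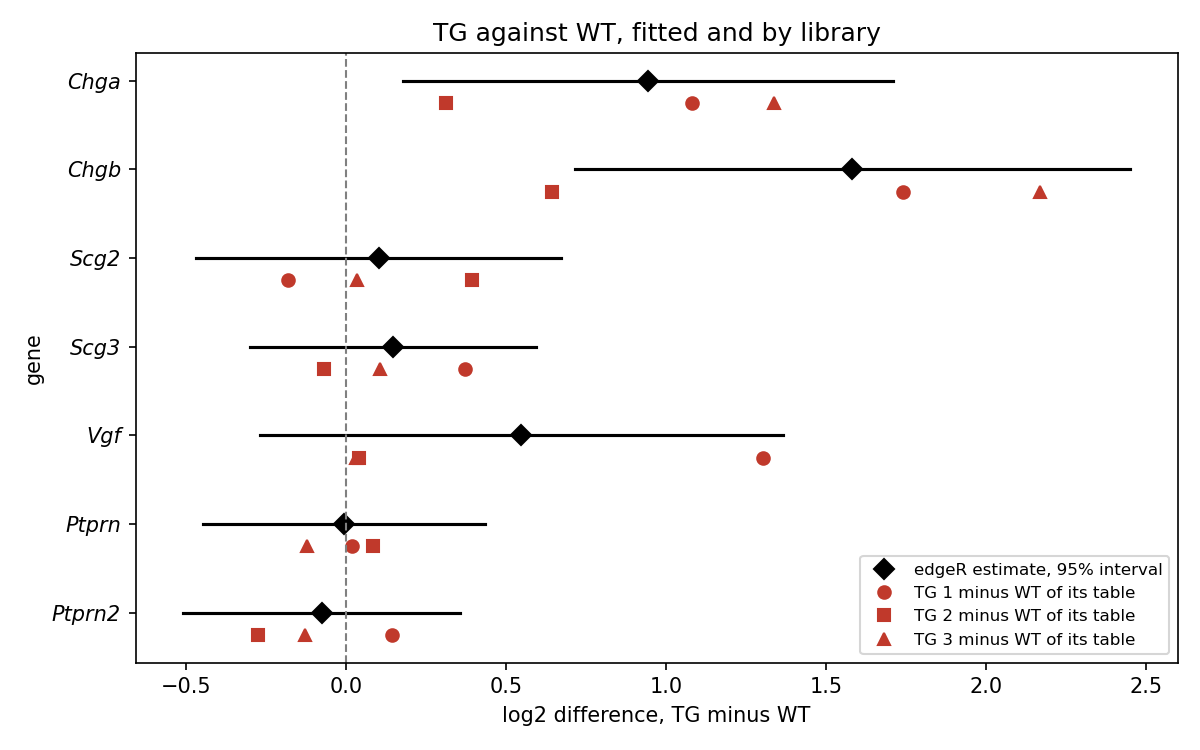
Log2 difference of TG minus WT for each gene. Black diamonds are the edgeR estimates with unadjusted 95% intervals, and red symbols are each TG library minus the mean of the WT libraries of its table. The intervals of Chga (0.18 to 1.71) and Chgb (0.71 to 2.45) lie above 0, and those of the other 5 genes span 0.

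Secretogranin II, the precursor of the neuropeptide secretoneurin, did not share this pattern. Scg2 (ENSMUSG00000050711, chromosome 1, 79434669 to 79440120, minus strand, 2 exons) had 4207, 6276 and 3774 CPM in TG 1, TG 2 and TG 3, against 5211, 4334 and 3682 CPM in WT 1, WT 2 and WT 3. TG 2 was the highest library, above every WT library, while TG 1 and TG 3 lay inside the WT range. Within the first table, TG 1 was below both WT libraries and TG 2 above both. The log2 fold change was 0.10 (SE 0.24, 95% interval -0.47 to 0.67, edgeR adjusted p = 0.880). Without TG 2 it was -0.0945.

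Secretogranin III binds chromogranin A and cholesterol and tethers granin aggregates to the granule membrane. Scg3 (ENSMUSG00000032181, chromosome 9, 75643264 to 75683996, minus strand, 12 exons) had 980, 722 and 705 CPM in TG 1, TG 2 and TG 3, against 808, 706 and 655 CPM in WT 1, WT 2 and WT 3. TG 1 was the highest, and the other TG libraries lay inside the WT range. The log2 fold change was 0.15 (SE 0.19, 95% interval -0.30 to 0.59, edgeR adjusted p = 0.760). It was 0.0069 without TG 1.

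Vgf encodes a granin-like secreted protein that is cut into several bioactive peptides. Vgf (ENSMUSG00000037428, chromosome 5, 137026392 to 137033351, plus strand, 5 exons) had 330, 137 and 258 CPM in TG 1, TG 2 and TG 3, against 120, 147 and 253 CPM in WT 1, WT 2 and WT 3. TG 3 and WT 3 were nearly level, TG 2 lay between WT 1 and WT 2, and TG 1 alone was apart. The log2 fold change was 0.55 (SE 0.34, 95% interval -0.27 to 1.36, edgeR adjusted p = 0.507). Without TG 1 it was 0.036, so the difference rested on that library.

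The granule phosphatases gave nearly level values. Ptprn (ENSMUSG00000026204, chromosome 1, 75247027 to 75264502, minus strand, 23 exons), which encodes ICA512, had 816, 852 and 1081 CPM in TG 1, TG 2 and TG 3, against 918, 691 and 1177 CPM in WT 1, WT 2 and WT 3. All TG libraries lay inside the WT range. Ptprn2 (ENSMUSG00000056553, chromosome 12, 116485720 to 117276849, plus strand, 23 exons), which encodes phogrin, had 434, 325 and 432 CPM in TG 1, TG 2 and TG 3, against 433, 353 and 472 CPM in WT 1, WT 2 and WT 3. TG 3 and WT 3 were the highest Ptprn libraries of their genotypes, and the Ptprn2 groups overlapped. The log2 fold changes were -0.0059 (SE 0.19, 95% interval -0.45 to 0.43) for Ptprn and -0.076 (SE 0.18, 95% interval -0.51 to 0.36) for Ptprn2, with edgeR adjusted p of 0.991 and 0.884. These intervals are not adjusted for the number of genes and are not limits of detection. In the same fit, the larger differences of Chga (0.94) and Chgb (1.58) did not pass either, with edgeR adjusted p of 0.277 and 0.199. The smallest difference that would pass with 3 libraries a group was not tested. The counted genes that overlap Ptprn and Ptprn2, among them Mir153 inside Ptprn2, had at most 41 counts of their own in any library. Gm48119, which also overlaps Ptprn2, was absent from the deposited counts.

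Whether the TG effect was larger in one table was tested for each member as an interaction (second minus first table). It was 0.87 (SE 0.77) for Chgb, 0.59 (SE 0.76) for Chga and -0.77 (SE 0.72) for Vgf, and between -0.17 and -0.062 for the other 4. None passed in edgeR (adjusted p = 0.9998 for each, lowest unadjusted p 0.301 for Chgb), nor did any of all genes (0.0%). With 1 library per genotype in the second table, the spread in this test comes from the first table alone. Since apparent sex follows the table, a difference by table and a difference by sex cannot be told apart here.

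Levels of different genes were compared per length, as the FPKM (fragments per kilobase of gene and per 1000000 fragments) that the authors deposited. Chga was the highest member in 6 of 6 libraries, at 7526 ± 3666 FPKM in TG and 3725 ± 946 FPKM in WT (SD, n = 3 each). It ranked 7th, 9th and 6th among all genes in TG 1, TG 2 and TG 3, and 9th, 17th and 8th in WT 1, WT 2 and WT 3. Over the 6 libraries Scg2 was next, at 1809 ± 315 FPKM, then Chgb at 1682 ± 1077, Scg3 at 338 ± 42.3, Ptprn at 220 ± 58.9, Vgf at 70.7 ± 30.5 and Ptprn2 at 47.8 ± 9.23 FPKM (SD, n = 6). These means pool both genotypes, and Chgb itself averaged 2507 FPKM in TG and 857 FPKM in WT. Scg2 was above Chgb in 4 of 6 libraries and Vgf above Ptprn2 in 5 of 6, and the ranges of each pair overlapped. The low place of Ptprn2 depends on its deposited gene length of 8602 bases. Its longest coding transcript has 3201 bases, and a shorter length would raise its FPKM. Scg3 was above Ptprn in every library, although their ranges overlapped between libraries.

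The order of Chgb and Scg2 differed between libraries. Chgb was at 3305, 1547 and 2670 FPKM in TG 1, TG 2 and TG 3, against 1098, 873 and 600.0 FPKM in WT 1, WT 2 and WT 3. Scg2 was at 1599, 2386 and 1641 FPKM in TG 1, TG 2 and TG 3, against 1969, 1643 and 1617 FPKM in WT 1, WT 2 and WT 3. Chgb thus exceeded Scg2 in TG 1 and TG 3, and Scg2 exceeded Chgb in TG 2 and all WT libraries. Of the summed FPKM of the 7 genes, Chgb took 26.0%, 17.9% and 16.2% in TG 1, TG 2 and TG 3, against 14.4%, 15.2% and 7.94% in WT 1, WT 2 and WT 3.

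**Figure D3:**
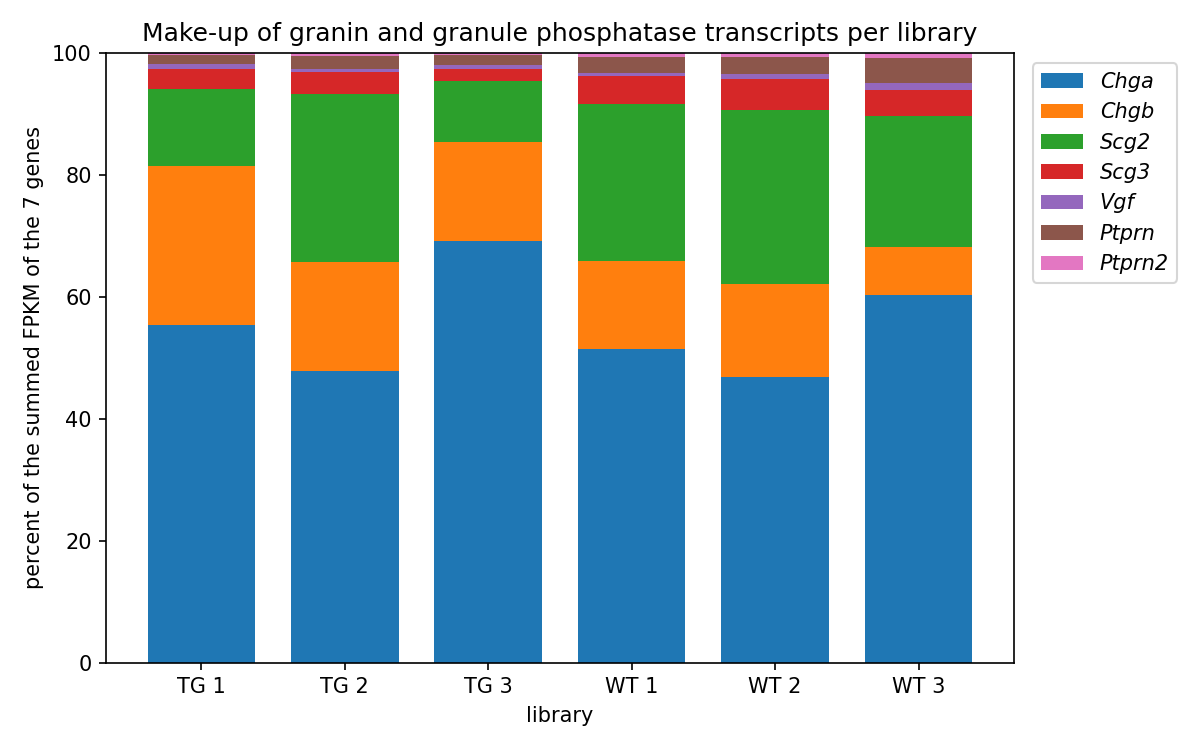
Percent of the summed FPKM of the 7 genes taken by each gene, per library, TG at the left and WT at the right. The Scg2 segment is 12.6% and 9.95% in TG 1 and TG 3, against 21.4% to 28.6% in the WT libraries, with TG 2 at 27.6%.

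Ratios within a library do not depend on how libraries are scaled. The Chgb to Chga ratio of FPKM was 0.469 and 0.375 in TG 1 and TG 2, against 0.280 and 0.324 in WT 1 and WT 2. It was 0.234 in TG 3, against 0.132 in WT 3. In each table the TG libraries were above WT, while the levels differed between the tables. The Scg2 to Chga ratio was 0.227, 0.578 and 0.144 in TG 1, TG 2 and TG 3, against 0.502, 0.610 and 0.355 in WT 1, WT 2 and WT 3, so TG 2 was inside the WT range and the other TG libraries below it. The Ptprn to Ptprn2 ratio was 3.80, 5.31 and 5.07 in TG 1, TG 2 and TG 3, against 4.29, 3.96 and 5.05 in WT 1, WT 2 and WT 3, and the groups overlapped. The size of this ratio, though not its comparison between libraries, depends on the deposited gene lengths. These ratios were chosen after their values were seen and were not tested.

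**Figure D4:**
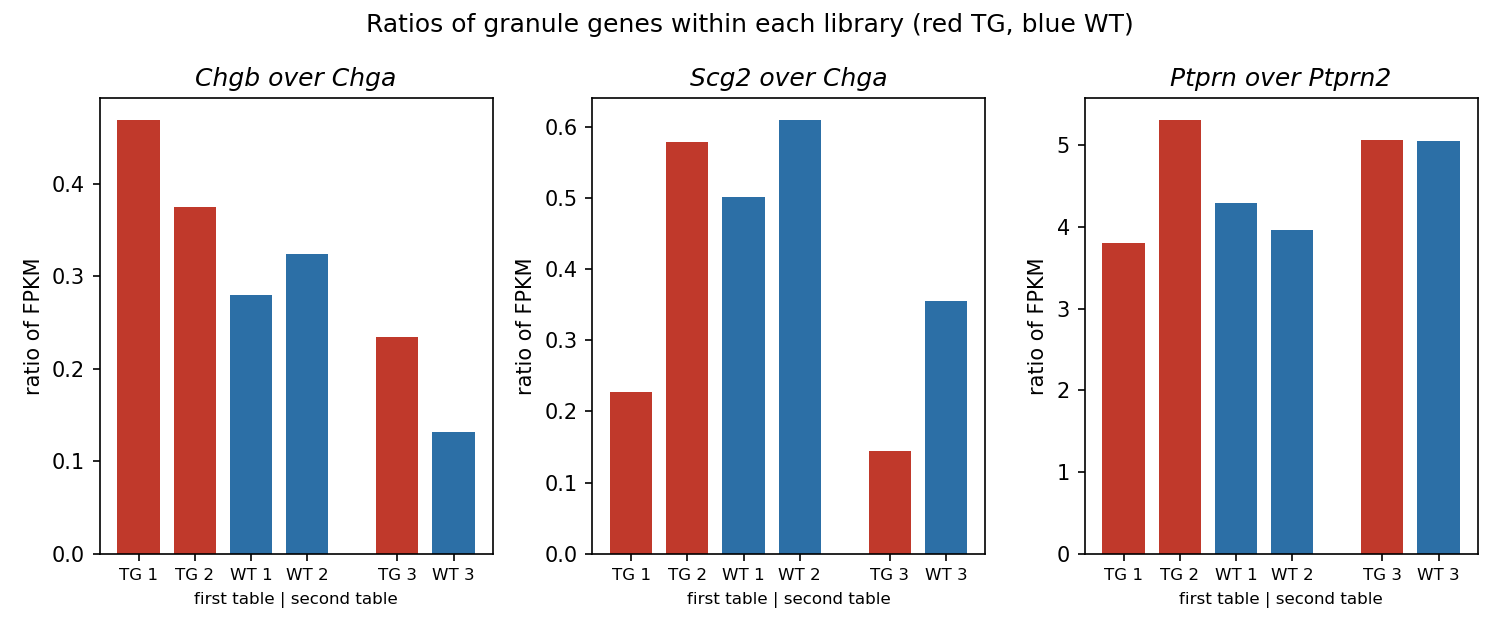
Ratio of FPKM within each library (red TG, blue WT), with the first table at the left of each panel and the second at the right. Chgb over Chga is higher in TG in both tables (0.469 and 0.375 against 0.280 and 0.324, and 0.234 against 0.132), while Ptprn over Ptprn2 overlaps.

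Together the 7 genes took 3.20% of all counts in TG 1 (95% Wilson interval 3.19 to 3.20), 1.92% in TG 2 (1.91 to 1.92) and 3.63% in TG 3 (3.63 to 3.64). In WT they took 1.69% in WT 1 (1.69 to 1.70), 1.30% in WT 2 (1.29 to 1.30) and 1.68% in WT 3 (1.67 to 1.68). Most of the excess in TG 1 and TG 3 was Chga and Chgb. The intervals cover counting error only.

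The genes with the most similar profile were found among 11169 genes with a mean CPM of at least 5, as the smallest root mean square difference of centred log2 CPM over the 6 libraries. For Chgb the nearest was Pdyn, which encodes the opioid peptide precursor prodynorphin, at 0.11 log2 units. Pdyn had 695, 347 and 584 CPM in TG 1, TG 2 and TG 3, against 245, 222 and 134 CPM in WT 1, WT 2 and WT 3. Rapgef5 and Tcp11l2 followed at 0.18 and 0.19. For Chga they were Trp53i11, Synpo and Tnfrsf11a at 0.13, 0.14 and 0.14. For Vgf they were Ass1, Fyn and the hormone gene Sst at 0.11, 0.12 and 0.13.

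Sst, the somatostatin gene, had 4127, 2155 and 4315 CPM in TG 1, TG 2 and TG 3, against 1735, 2259 and 3663 CPM in WT 1, WT 2 and WT 3. Acad11, Fam98a and Lgals8 were nearest to Scg2 (at most 0.041), and Cdc25a, Cdca4 and Tmem260 to Scg3 (at most 0.06). Trim68, Pomgnt1 and Tmem214 were nearest to Ptprn (at most 0.07) and Zfp592, Hexa and Rhpn2 to Ptprn2 (at most 0.06). These 4 members also varied less over the libraries than Chga, Chgb and Vgf did. Among the members themselves, Ptprn and Ptprn2 were the most alike, at 0.19, and Ptprn and Chgb the least, at 0.97. Chga and Chgb differed by 0.58.

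Other granin-like proteins of the granule were all higher in fitted value (median log2 fold change 0.68, against -0.015 over all genes). In edgeR 0 of 3 passed, and 2 had an unadjusted p under 0.05, both higher, against 9.32% of all genes higher. Scg5, a chaperone of the prohormone convertase Pcsk2, had 1709, 1579 and 1283 CPM in TG 1, TG 2 and TG 3, against 1275, 950 and 678 CPM in WT 1, WT 2 and WT 3. The groups did not overlap, as in 6.96% of all genes with TG above WT, and the log2 fold change was 0.68 (SE 0.20, edgeR adjusted p = 0.245). Pcsk1n, which encodes the convertase inhibitor proSAAS, followed the table, with 3562 CPM in TG 3, against 2172 CPM in WT 3, and 732 to 833 CPM in the first table. Gnas, whose locus also gives a granin-like protein that these gene counts do not separate, had a log2 fold change of 0.79 (SE 0.31, edgeR adjusted p = 0.326). DESeq2 called Scg5 (3.83% of all genes higher) and edgeR without TG 2 called Gnas (8.82%).

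Of 6 genes for prohormone processing in the granule, 3 were higher and 3 lower (median log2 fold change 0.0011). In edgeR 0 passed, and 1 in each direction had an unadjusted p under 0.05, against 9.32% of all genes higher and 4.81% lower. Pcsk2, the convertase that Scg5 assists, went the other way from Scg5, with 1330, 1410 and 1734 CPM in TG 1, TG 2 and TG 3, against 1842, 1960 and 2346 CPM in WT 1, WT 2 and WT 3. Every TG library was below every WT library, as in 6.42% of all genes. Pam, the enzyme that amidates peptides, had 1299, 815 and 858 CPM in TG 1, TG 2 and TG 3, against 711, 603 and 569 CPM in WT 1, WT 2 and WT 3. Cpe, the carboxypeptidase that trims basic residues, had a log2 fold change of 0.41 (SE 0.21, edgeR adjusted p = 0.432). For both Pam and Cpe, every TG library was above every WT library, as in 6.96% of all genes. The edgeR adjusted p was 0.310 for Pcsk2 and 0.277 for Pam, and DESeq2 called Pcsk2 lower (0.0142), against 0.846% of all genes. Without TG 2, edgeR called Pam and Cpd higher (log2 fold changes 0.81 and 0.72) and Qpct lower (-1.56), against 8.82% of genes higher and 4.4% lower.

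Genes of granule biogenesis and maturation had fitted log2 fold changes between -0.24 and 0.12. Of 13, 5 were higher and 8 lower, 0 had an unadjusted p under 0.05, and edgeR, DESeq2 and edgeR without TG 2 each called 0. Their median log2 fold change was -0.11, against -0.015 over all genes. Vps51, a subunit of a tethering complex, had the smallest p, with 25.0, 26.7 and 51.5 CPM in TG 1, TG 2 and TG 3, against 33.3, 28.7 and 58.6 CPM in WT 1, WT 2 and WT 3. Vps53, Vps52 and Ccdc186 had log2 fold changes of -0.18, -0.18 and -0.11.

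Of 5 granule membrane genes, 2 were higher and 3 lower (median log2 fold change -0.071). In edgeR 0 passed, 1 in each direction had an unadjusted p under 0.05 (9.32% of all genes higher and 4.81% lower), and DESeq2 called 0. Slc30a8, the zinc transporter of the insulin granule, had 81.3, 324 and 143 CPM in TG 1, TG 2 and TG 3, against 416, 356 and 409 CPM in WT 1, WT 2 and WT 3. All TG libraries were below WT, as in 6.42% of all genes. The log2 fold change of Slc30a8 was -1.12 (edgeR adjusted p = 0.350), or -1.93 without TG 2 (adjusted p = 0.00355). Slc18a1, a vesicular monoamine transporter, had a log2 fold change of 1.16 (SE 0.48, edgeR adjusted p = 0.351). Vamp2 and Cyb561 had log2 fold changes of -0.21 and 0.06.

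Of 7 islet hormone genes, 4 were higher and 3 lower (median log2 fold change 0.44), and 0 passed in edgeR. An unadjusted p under 0.05 was reached by 2 higher and 1 lower, against 9.32% of all genes higher and 4.81% lower. DESeq2 called 1 lower, against 0.846% of all genes. Without TG 2, edgeR called 2 in each direction, against 8.82% of genes higher and 4.4% lower. Ins2 had 23279, 149263 and 27202 CPM in TG 1, TG 2 and TG 3, against 156044, 167889 and 79195 CPM in WT 1, WT 2 and WT 3. The TG libraries with the least Ins2, TG 1 and TG 3, had the most Chga and Chgb. Among WT, WT 3 had the least Ins2 and also the least Chgb (1489 CPM), while WT 2 had the most Ins2 and the least Chga (5319 CPM). A link between these genes was not tested. Ppy, the hormone of PP cells, had 13494, 8225 and 20194 CPM in TG 1, TG 2 and TG 3, against 4800, 4683 and 3024 CPM in WT 1, WT 2 and WT 3. Pyy, which encodes peptide YY, had 7840, 2518 and 11303 CPM in TG 1, TG 2 and TG 3, against 1637, 2340 and 1379 CPM in WT 1, WT 2 and WT 3. For both hormones the groups did not overlap, as in 6.96% of all genes with TG above WT. Their lowest TG library was TG 2, as for Chga and Chgb.

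Ins1, the other mouse insulin gene, had 6898, 16150 and 6705 CPM in TG 1, TG 2 and TG 3, against 23722, 23310 and 13210 CPM in WT 1, WT 2 and WT 3. Gcg, the glucagon gene, was at 20749 to 45314 CPM in TG libraries, against 17323 to 25796 CPM in WT libraries, and Iapp, the amyloid peptide gene, at 19288 to 55807 CPM in TG libraries, against 21499 to 54580 CPM in WT libraries. These overlapped between the groups.

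The beta-cell markers, 1 of 9 higher, were at 54506 to 223759 CPM over the TG libraries, against 116599 to 237645 CPM over the WT libraries, a sum made up mostly of Ins1, Ins2 and Iapp. Of the 9, 4 (Mafa, Ucn3, Slc2a2 and Pdx1, with log2 fold changes of -2.83, -2.99, -1.62 and -0.73) had every TG library below every WT library, against 6.42% of all genes. In edgeR 0 of the 9 passed and 3 had an unadjusted p under 0.05, all lower, against 4.81% of all genes lower. DESeq2 called 3 lower, and edgeR without TG 2 called 7 lower, against 0.846% and 4.4% of genes. What the beta-cell difference adds to the Chga and Chgb result was not tested. The alpha-cell markers, 7 of 7 higher, summed to 23198 to 48706 CPM in TG libraries, against 18959 to 27406 CPM in WT libraries. The PP-cell markers were higher in 2 of 2. Their sum did not overlap, at 10744 to 31497 CPM in TG libraries, against 4403 to 7023 CPM in WT libraries. Both markers had every TG library above every WT library, as in 6.96% of all genes. The delta-cell markers, 3 of 3 higher, were at 2468 to 4901 CPM in TG libraries, against 1941 to 3944 CPM in WT libraries. Alpha, PP and delta cells also hold granins, and their part in the Chga and Chgb result was not tested.

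The duct-cell markers were higher in 6 of 6 tested. Their sum did not overlap either, at 1460 to 1920 CPM in TG libraries, against 652 to 1015 CPM in WT libraries. Most of that sum was Krt7, Spp1 and Tspan8. Of the 6, 4 had every TG library above every WT library, as in 6.96% of all genes, while Krt19 and Sox9 overlapped. Acinar markers, 6 of 8 tested higher, overlapped and followed the table, at 271 to 4371 CPM in TG libraries, against 123 to 6397 CPM in WT libraries. Endothelial markers, 4 of 5 higher, were at 210 to 427 CPM in TG libraries, against 195 to 318 CPM in WT libraries. Of these 3 lists, only the duct sum did not overlap.

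Stellate-cell markers, 5 of 6 higher, were at 18.6 to 134 CPM in TG libraries, against 13.3 to 67.8 CPM in WT libraries, and myeloid markers, 2 of 5 higher, at 26.8 to 47.1 CPM in TG libraries, against 28.1 to 101 CPM in WT libraries. Schwann-cell markers, 2 of 3 tested higher, were at 8.60 to 12.7 CPM in TG libraries, against 6.68 to 12.2 CPM in WT libraries. Markers of autonomic neurons and chromaffin cells, which are also rich in granins, were higher in 4 of 5 tested, at 57.2 to 132 CPM in TG libraries, against 68.8 to 75.1 CPM in WT libraries. Most of that sum was Th and Elavl4, while Dbh was at most 0.124 CPM in TG and at 0 counts in every WT library. No marker of any list was at 0 in all 6 libraries. The part of these cell types in the Chga and Chgb result was not tested.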

How the data were processed

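Islet RNA was taken up in TRIZOL, and libraries were made from 3 µg with NEBNext Ultra reagents, per the labels' protocols. The submitters' processing notes name CASAVA 1.8, HISAT2 and GRCm38 (mm10). How reads were counted, with which strand setting and gene models, is not given in the sources used here. Reads of overlapping or antisense genes therefore cannot be told apart. The deposited raw counts are whole numbers per gene. The normalized signal that the authors deposited is close to the count times 1 factor per library, with median factors from 0.819 to 1.26, and was used here only to check the FPKM. The deposited FPKM values are that signal per gene length, made separately for the 2 tables, so they were compared between genes within libraries, and levels set across the tables in FPKM carry that limit. Gene names and coordinates came from the annotated FPKM tables by the authors.

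After joining both count tables on gene ID, genes were tested with edgeR 4.0.16 under R 4.3.3 (filterByExpr by genotype, TMM, quasi-likelihood F-test, table and genotype as terms). Benjamini-Hochberg adjustment ran over all 16072 genes tested, and the threshold was 0.05. The SE is the absolute log2 fold change over the square root of F. CPM are counts per 1000000 of the TMM-scaled library size. Alternatives were DESeq2 1.42.0, limma-voom (limma 3.58.1), other scalings, no filter, no table term, the first table alone and each library left out. Exons, 3′ UTRs and overlaps came from GENCODE M21, and promoters and the microRNA from RefSeq, both on GRCm38. Eipr1 was matched through its older symbol Tssc1. Named genes are all members, up to 4 genes per list with the smallest p, and the 3 nearest profiles per member. Some genes that this rule takes are not reported here. Genes outside that rule (Qpct and single cell markers such as Mafa) were named after their values were seen. The members and lists were chosen with earlier results of these data known. At 20176456 to 27482339 counts per library, counting error was small beside the spread between libraries.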

Additional observations from a re-analysis of the deposited data

How the results depend on the processing

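The 112 recomputed fold changes (7 genes under 16 alternatives) kept direction and side of the threshold in 95 cases. The alternatives are not all separate checks. With the table as a term, a lone library of the second table says nothing on genotype. The fits without WT 3 and without TG 3 are therefore nearly the fit of the first table alone. Chga and Chgb crossed the threshold in 3 alternatives each. The counts passing were 616 genes higher, 136 lower and 2 of the members in DESeq2, with log2 fold changes of 0.94 for Chga and 1.58 for Chgb. They were 1300 higher, 372 lower and 2 members in edgeR without the low-count filter (0.92 for Chga, adjusted p = 0.00699, and 1.56 for Chgb, adjusted p = 2.92e-08). With each library left out, they ran from 0 to 1461 higher, 0 to 728 lower and 0 to 2 members, the highest without TG 2, and every other library left out gave 0. Bias-adjusted edgeR, chosen after seeing the data, called 0 genes with and without the filter, where the adjusted p without it was 0.238 for Chga and 0.157 for Chgb. The cause of these differences was not tested.

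Over all alternatives, the log2 fold change of Chga ran from 0.74 to 1.19 and that of Chgb from 1.29 to 1.92, with adjusted p from 0.00699 to 0.9997 and from 2.92e-08 to 0.924. With each library left out, Chga ran from 0.74 to 1.19, Chgb from 1.29 to 1.92, Scg2 from -0.0945 to 0.24, Scg3 from 0.0069 to 0.25, Vgf from 0.036 to 0.81, Ptprn from -0.13 to 0.115 and Ptprn2 from -0.21 to 0.0225. Values close to 0 changed sign. Scg2 did so without TG 2 (-0.0945). Ptprn was above 0 in limma-voom (0.0039), with library size only (0.0765), with hormone genes left out of the scaling (0.0085) and without WT 1 (0.115). It was also above 0 with the first table only (0.053), without WT 3 (0.0476) and without TG 3 (0.0524), which are nearly the same fit. Ptprn2 was above 0 with library size only (0.018), without WT 1 (0.0163) and without TG 2 (0.0225). The 28 recomputed differences between the tables kept their direction and passed in none (lowest adjusted p 0.9995). The order of the members by FPKM was the same by counts per kilobase in all 6 libraries. Both measures divide by the same gene length, so the order could hardly differ and this is no separate check. No paired analysis was possible because the genotypes share no replicate numbers in the labels. The intervals given for Scg2, Scg3, Ptprn and Ptprn2 are not limits of detection. With 3 libraries a group and the low-count filter, edgeR did not pass the larger differences of Chga (0.94) and Chgb (1.58) either.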

Other observations

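Receptor-type tyrosine phosphatases other than the granule pair spanned a wider range of fold changes than Ptprn and Ptprn2. Of 9, 4 were higher and 5 lower in TG (median log2 fold change -0.21, against -0.015 over all genes). None passed in edgeR, 0 of 9, and 4 had an unadjusted p under 0.05, against 14.1% of all genes. Ptprk, an adhesion-type receptor, had 79.9, 20.2 and 61.4 CPM in TG 1, TG 2 and TG 3, against 12.8, 18.2 and 13.6 CPM in WT 1, WT 2 and WT 3. Ptprg had 72.0, 25.3 and 46.3 CPM in TG 1, TG 2 and TG 3, against 17.5, 22.2 and 15.3 CPM in WT 1, WT 2 and WT 3. For both genes TG 2 was only a little above WT. Their log2 fold changes were 1.85 (SE 0.48) and 1.39 (SE 0.37), with edgeR adjusted p of 0.222 and 0.227. Ptprm and Ptprf were lower, with log2 fold changes of -0.61 and -0.38. DESeq2 and edgeR without TG 2 each called Ptprk and Ptprg higher and Ptprm lower, where they called 4.68% and 13.2% of all genes.

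Of 10 regulators of granin genes, 7 were higher and 3 lower in TG (median log2 fold change 0.071). In edgeR 0 of 10 passed. An unadjusted p under 0.05 was reached by 1 higher and 1 lower, against 9.32% of all genes higher and 4.81% lower. DESeq2 and edgeR without TG 2 each called 1 higher and 0 lower, against 3.83% and 8.82% of genes higher. Atf1, a factor that binds the cyclic AMP response element, had 39.3, 41.4 and 34.9 CPM in TG 1, TG 2 and TG 3, against 48.2, 52.5 and 53.2 CPM in WT 1, WT 2 and WT 3. Every TG library was below every WT library, as in 6.42% of all genes, and the log2 fold change was -0.41 (SE 0.13, edgeR adjusted p = 0.255). Rest, the repressor that keeps granin genes silent outside endocrine and nerve cells, was at 1.94 to 7.92 CPM in all libraries and overlapped between the groups. Egr1, an immediate-early factor, had 99.02, 39.4 and 244 CPM in TG 1, TG 2 and TG 3, against 60.2, 20.9 and 55.6 CPM in WT 1, WT 2 and WT 3.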
